A study of Mus musculus with 9 samples.

Results

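Gzma, Gzmb, Gzmc, Prf1 and Fasl, the genes of 3 granzymes, perforin and Fas ligand, were followed on all 9 expression arrays of RNA that came down with Argonaute (AGO), the carrier protein of microRNAs, from mouse T cells. The members were the probe sets that the platform annotation gives to 1 gene symbol, one of these 5, which left 7 of 34945 probe sets and 5 of 18193 genes. Gzmb stood higher after both kinds of stimulation than after culture with dendritic cells of the same strain, on all 3 arrays of each stimulated culture. Gzma stood lower in antibody-stimulated cells than in both other cultures in each replicate number. Gzmc stood lower in both stimulated cultures than with dendritic cells of the same strain, also in each number. Of all genes, 9.15% were lower in each number with antibodies and 7.96% with dendritic cells of another strain, against the same strain. With antibodies, 4.39% were lower in each number than with dendritic cells of another strain. The widest gaps of Gzma, Gzmc and Fasl below their partner arrays were on 1 array of antibody-stimulated cells. The brighter probe set of Prf1 followed the replicate number rather than the culture, and arrays of the same number also correlated over all genes. No member passed the test across all genes in any comparison.

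C57BL/6 T cells were kept for 24 h in 1 of 3 cultures, with 3 arrays each, numbered as biological replicates 1 to 3. Allogeneic culture held BALB/c dendritic cells at 20 T cells per dendritic cell. Anti-CD3/CD28 culture held 0.1 µg/ml of antibodies against CD3e and CD28, and syngeneic culture held C57BL/6 dendritic cells, again at 20 T cells per dendritic cell. No ratio to dendritic cells is given for anti-CD3/CD28 culture. In its differences from the other cultures, stimulus and dendritic cells cannot be told apart. The design text sets out to find changes in allogeneic activated T cells that are distinct from those under non-specific stimulation. In all 3 cultures the T cells were bead-purified, given a first ultraviolet dose of 400 mJ/cm2 and lysed, and the RNA bound by AGO was amplified and hybridised. No input RNA was analysed here, so the abundance of a transcript and its binding by AGO cannot be told apart, and neither can fewer expressing cells and less RNA per cell. The labels name no deleted gene or transgene in any group.

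Cytotoxic T cells kill by a pair of main routes. In the first, cytotoxic granules are released toward the target cell, perforin opens its membranes, and granzymes, a family of serine proteases, enter and cleave their substrates. In the second, Fas ligand on the T cell engages the death receptor Fas and starts the caspase cascade from the target's surface. In mouse T cells, resting cells hold little granzyme B protein and activated cells make it within days.

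Values are log2 signals from the deposited RMA (robust multi-array average) table, and a difference of 1 is a doubling. Probe sets differ in their response, so levels are set beside the median of their own array, which ran from 4.58 to 5.67, and not against each other. The replicate numbers mark a strong shared component: after removal of group means, the 9 pairs of arrays with the same number correlated at 0.811 to 0.921. Differences are therefore also given within each number. Many signals were exactly equal between arrays of a number, for 17.9% to 49.0% of genes depending on the pair of arrays, and the highest share was between the allogeneic and anti-CD3/CD28 arrays numbered 1. Among the 7 member probe sets, 12 of 63 such pairs were exactly equal, none of them for Gzma or Gzmb. Equal values of a pair do not by themselves show that a transcript was unchanged. Over the 27 pairs of arrays with different numbers, 0 genes were exactly equal. Whether the numbers were normalized together is not given in the sources used here, so a difference in level between numbers cannot be told apart from one in normalization. The labels do not name separate animals or cultures, so p-values measure the spread between these arrays. Of 12 T cell markers 11 were measured, and all 11 lay above the array median on all arrays. So did 4 of 5 measured B cell markers and 7 of 9 dendritic cell markers, so these values do not show pure T cells.

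Gzmb and Gzmc are neighbours at the end of the granzyme cluster on mouse chromosome 14, where the order is Gzme, Gzmd, Gzmg, Gzmn, Gzmf, Gzmc, Gzmb. Gzma lies beside Gzmk on chromosome 13, Prf1 on chromosome 10 and Fasl on chromosome 1. The 250 bases before the start of Gzmb and Gzmc, from RefSeq on GRCm38.p6, are shown because these adjacent genes had different patterns on the arrays. Both genes are on the minus strand, and the windows are chr14:56262335-56262584 for Gzmb and chr14:56234658-56234907 for Gzmc. Capitals mark matches to the AP-1 motif, the CRE core or the Runx core.
Gzmb: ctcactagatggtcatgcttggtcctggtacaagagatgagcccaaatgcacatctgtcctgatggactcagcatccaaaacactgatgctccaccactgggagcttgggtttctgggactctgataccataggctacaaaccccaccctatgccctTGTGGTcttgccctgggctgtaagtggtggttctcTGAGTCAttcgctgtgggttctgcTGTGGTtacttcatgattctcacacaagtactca
Gzmc: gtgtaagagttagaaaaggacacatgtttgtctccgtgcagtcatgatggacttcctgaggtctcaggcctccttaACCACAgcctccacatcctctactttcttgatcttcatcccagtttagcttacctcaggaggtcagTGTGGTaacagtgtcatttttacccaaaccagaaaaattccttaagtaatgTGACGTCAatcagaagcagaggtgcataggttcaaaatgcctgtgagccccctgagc

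Both strands were searched for 5 motifs in 32851 promoter windows of this length. The AP-1 motif TGANTCA, bound by Fos and Jun proteins, was in 6.75% of them, the CRE core GACGTCA, bound by the CREB family, in 2.78%, and the Runx core TGTGGT in 14%. The STAT motif TTCNNNGAA was in 7.02% and the NFAT core TTTCC in 55.6%. The Gzmb window held 1 AP-1 match 58 bases before the start and 2 Runx cores, at 93 and 34 bases. The Gzmc window held no AP-1 match. It held the palindromic CRE at 57 bases, read on both strands as 2 overlapping matches, and 2 Runx cores at 174 and 108 bases. Of the other members, Gzma had 1 Runx core and 2 NFAT cores, Prf1 had 1 Runx core and Fasl had 2 NFAT cores. The windows of Gzmb and Gzmc shared 50.2% identical bases in a global alignment, about as for Gzma and Gzmb at 50%, which lie on different chromosomes. Gzmc shared 81.3% with Gzmd and 81.8% with Gzme. These matches are a description of the letters, and binding was not measured.

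**Figure D1:**
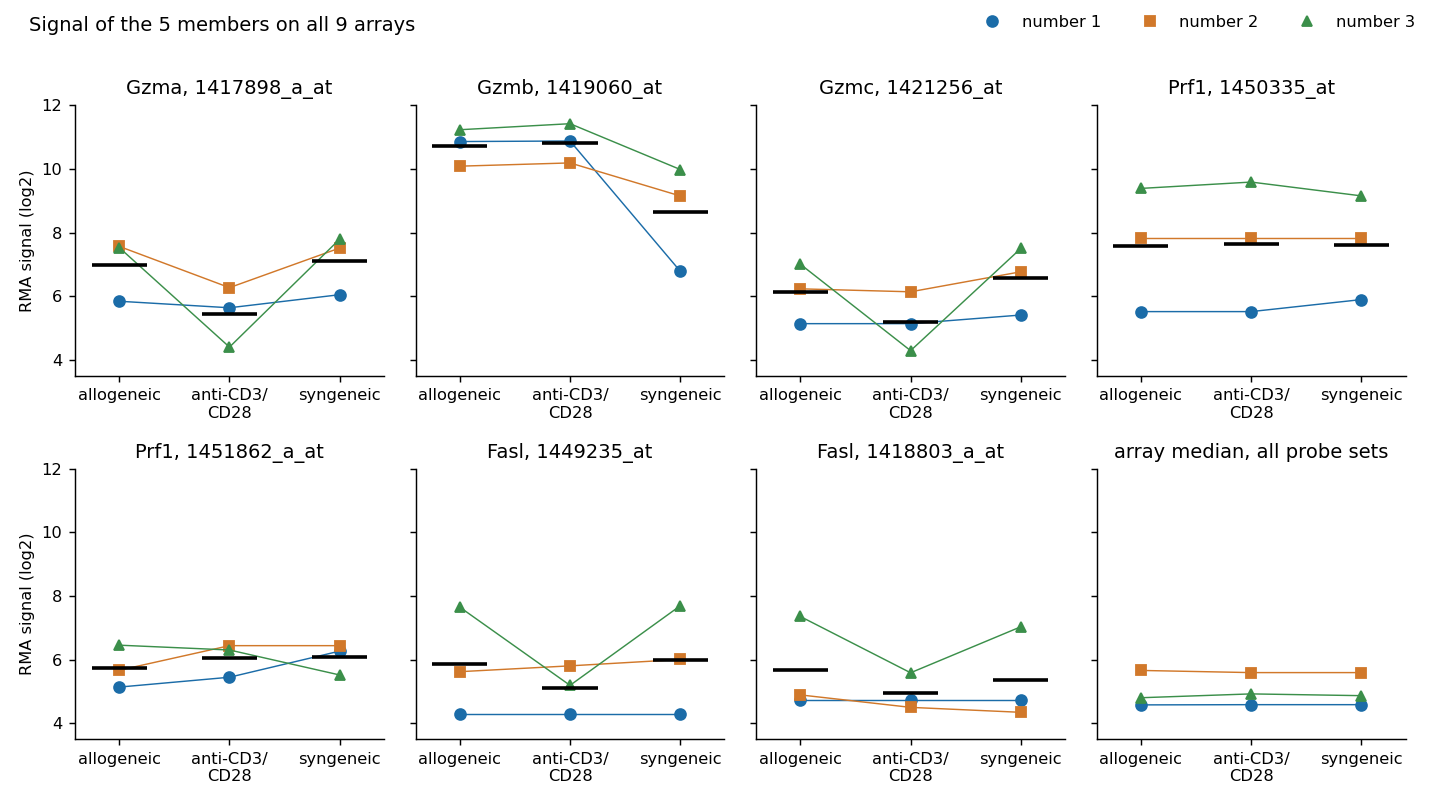
Signal (log2) of each member probe set on the 9 arrays, by culture on the horizontal axis, with a marker and line for each replicate number and the array medians in the last panel. Gzmb is lowest on the syngeneic arrays, and Prf1 separates by number, with means of 5.64, 7.83 and 9.37 over the arrays numbered 1, 2 and 3.

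Gzmb encodes granzyme B, the protease that cleaves after aspartate and activates caspases and Bid. Its probe set 1419060_at had signals of 10.86, 10.09 and 11.23 on allogeneic arrays 1 to 3, of 10.88, 10.19 and 11.42 on anti-CD3/CD28 arrays, and of 6.78, 9.15 and 9.98 on syngeneic arrays. The syngeneic signals were the 3 lowest of the 9, so neither stimulated culture overlapped with syngeneic culture. Gzmb was higher in each number of both comparisons, as were 7.29% of all genes in allogeneic and 7.8% in anti-CD3/CD28 culture. Of all genes, 0.192% stood higher without overlap in allogeneic culture and 0.412% in anti-CD3/CD28 culture. The signal lay above the array median on all 9 arrays, at the 97.5th, 97.2nd and 97.9th percentile of all probe sets on allogeneic arrays, the 97.5th, 96.9th and 98.5th on anti-CD3/CD28 arrays and the 81.9th, 93.0th and 93.1st on syngeneic arrays.

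Gzmb averaged 10.72 ± 0.58 in allogeneic and 8.64 ± 1.66 in syngeneic culture (SD, n = 3 each), a difference of 2.09 ± 0.71 (SE) or 4.25-fold. Within the numbers the fold was 16.8, 1.91 and 2.38. In anti-CD3/CD28 culture it averaged 10.83 ± 0.62 (SD, n = 3), which was 2.19 ± 0.71 (SE) or 4.56-fold above syngeneic culture, with 17.1-, 2.05- and 2.71-fold within the numbers. The large fold of number 1 came with the lowest syngeneic signal, 6.78. Without the arrays numbered 1, the log2 difference from syngeneic culture was 1.09 for allogeneic and 1.24 for anti-CD3/CD28 culture.

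By mean difference Gzmb ranked 1 of 18193 genes in both comparisons against syngeneic culture, which share their syngeneic arrays. Within number 1 it also ranked 1 in both. Within number 2 it ranked 252 for allogeneic and 308 for anti-CD3/CD28 culture, and within number 3 it ranked 334 and 181. An exact permutation test over the arrays gave p = 0.1 (two-sided) in both, the smallest that 3 against 3 allows. It moved arrays freely between cultures and ignored the replicate numbers, so it does not use their pairing. Limma's test across all genes, with Benjamini-Hochberg adjustment, gave Gzmb an adjusted p of 1 in both, as it did every other member in each comparison. The test called 0 of 18193 genes, or 0%, in each of the 3 comparisons. At an unadjusted p under 0.05 it counted 27 genes (0.148%) for allogeneic and 156 (0.857%) for anti-CD3/CD28 culture against syngeneic culture, with Gzmb in both counts and Gzma in the count for the antibodies. Between the stimulated cultures it counted 24 genes (0.132%), none of them a member. This fit has no block, so the spread between the replicate numbers is part of its error. With the number as a block, 825 genes for allogeneic and 1236 for anti-CD3/CD28 against syngeneic culture had an unadjusted p under 0.05. Between the stimulated cultures there were 205, and the members in each count were the same.

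Between the stimulated cultures Gzmb differed by −0.10 ± 0.71 (SE), allogeneic minus anti-CD3/CD28, with −0.02, −0.10 and −0.19 within the numbers. The 95% interval was −1.64 to 1.43, which is wide and does not show that the 2 cultures were alike.

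**Figure D2:**
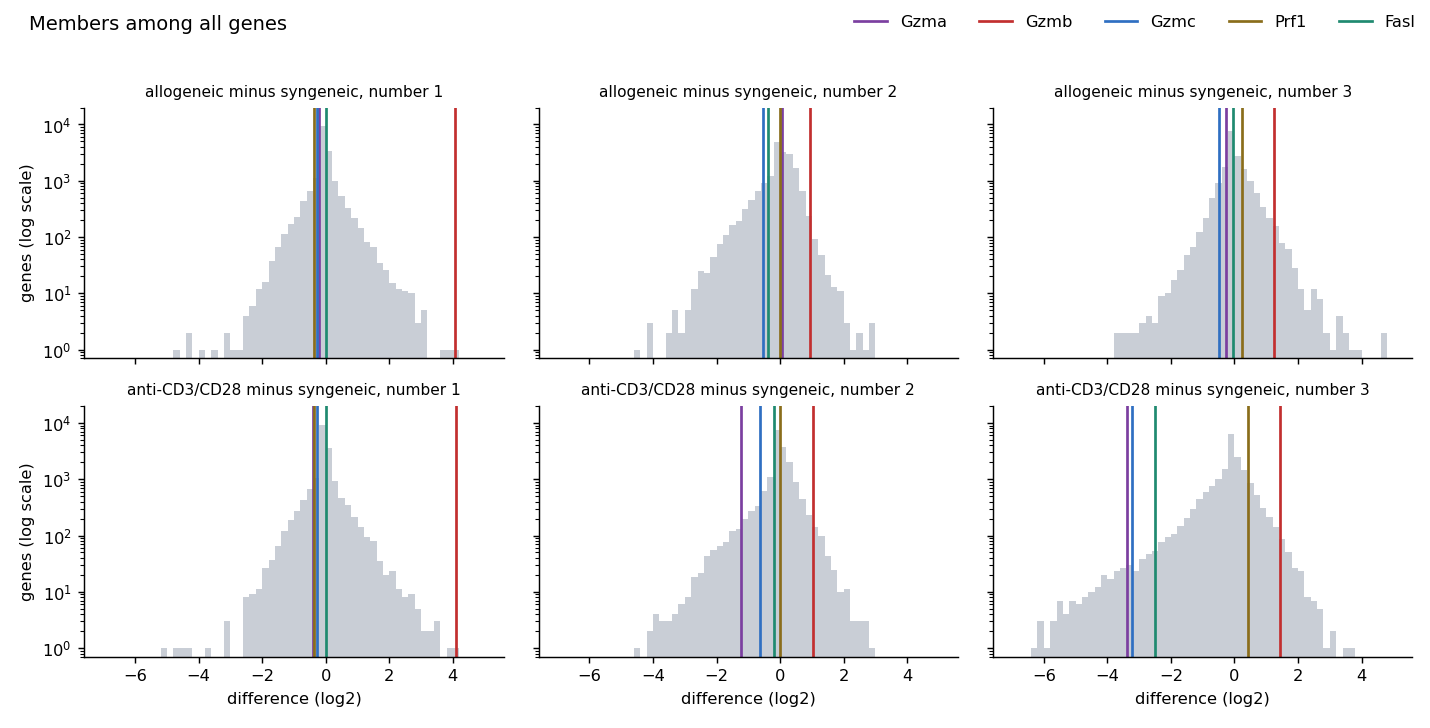
Histograms of the log2 differences of all 18193 genes within each replicate number (columns), for allogeneic minus syngeneic and anti-CD3/CD28 minus syngeneic culture (rows), with the 5 members as vertical lines and a log axis for gene number. Gzmb is the rightmost gene in number 1 of both rows, and lies in the right tail in numbers 2 and 3.

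Marker genes of other cells differed between the same cultures. Of 12 macrophage and monocyte markers 11 were measured, and all 11 were lower on average in both stimulated cultures than in syngeneic culture. In each comparison 7 of them were lower in all 3 numbers, and 6 of the 11 reached the mean array median on average. Their summed linear signal was 819, 1279 and 1652 on allogeneic arrays, 683, 980 and 330 on anti-CD3/CD28 arrays and 9423, 6626 and 6572 on syngeneic arrays. Lyz1 and Lyz2 made up most of this sum on the syngeneic arrays, and C1qa was above the array median on no array. Natural killer cells also carry granzyme B. Of 10 natural killer markers 7 were measured, and the defining receptor Ncr1, with Klra7 and Klra8, lay above the median on no array. Klre1 lay above it on 4 arrays and Cd244a on 2. Klrd1 and Klrk1, receptor genes that killer T cells also express, lay above it on all 9. Klrd1 had signals of 9.30, 7.32 and 9.41 on allogeneic arrays, of 8.90, 8.58 and 10.70 on anti-CD3/CD28 arrays and of 9.49, 8.06 and 10.39 on syngeneic arrays. The summed signal of the 7 natural killer markers, of which Klrd1 had the highest signal on each array, overlapped between cultures. It was 771, 386 and 921 in allogeneic, 617, 608 and 1902 in anti-CD3/CD28 and 866, 487 and 1595 in syngeneic culture. The summed signal of Cd8a and Cd8b1, which mark the main killer T cells, was 5929, 2891 and 3711 in allogeneic, 5919, 3620 and 5481 in anti-CD3/CD28 and 6148, 2137 and 3260 in syngeneic culture. It was lower in both stimulated cultures than in syngeneic culture in number 1 and higher in numbers 2 and 3. The part of the macrophage, natural killer and CD8 markers in the Gzmb difference was not tested.

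Gzma encodes granzyme A, a tryptase that starts a death pathway that does not need caspases. Its probe set 1417898_a_at had signals of 5.84, 7.57 and 7.53 on allogeneic arrays, of 5.64, 6.27 and 4.40 on anti-CD3/CD28 arrays and of 6.05, 7.51 and 7.79 on syngeneic arrays. Anti-CD3/CD28 arrays were the lowest in each number, and array 3 of that culture was the only one below its array median. Gzma averaged 5.44 ± 0.95 in anti-CD3/CD28 and 7.12 ± 0.94 in syngeneic culture (SD, n = 3 each). The difference was −1.68 ± 0.77 (SE), with −0.41, −1.25 and −3.39 within the numbers, and the 95% interval was −3.34 to −0.03. Of all genes, 9.15% were lower in all 3 numbers in this comparison. Without the arrays numbered 3 the difference was −0.83.

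In allogeneic culture Gzma averaged 6.98 ± 0.98 (SD, n = 3), which differed from syngeneic culture by −0.14 ± 0.77 (SE), with a 95% interval of −1.80 to 1.52. Against anti-CD3/CD28 culture the allogeneic signal was higher by 1.54, with 0.20, 1.30 and 3.13 within the numbers and a 95% interval of −0.11 to 3.20. Of all genes, 4.39% were higher in all 3 numbers in that comparison.

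Gzmc encodes granzyme C, a chymotrypsin-like granzyme found in mouse and made by strongly activated killer cells. Its probe set 1421256_at had signals of 5.14, 6.23 and 7.01 on allogeneic arrays, of 5.14, 6.14 and 4.29 on anti-CD3/CD28 arrays and of 5.41, 6.77 and 7.50 on syngeneic arrays. As for Gzma, anti-CD3/CD28 array 3 stood apart as the lowest of the 9 and the only one below its array median. The difference from syngeneic culture was −0.43 for allogeneic culture (−0.27, −0.54 and −0.50 within the numbers) and −1.37 for anti-CD3/CD28 culture (−0.27, −0.63 and −3.21). Gzmc was lower in all 3 numbers in both comparisons, as were 7.96% and 9.15% of all genes. Neither passed limma's test. The comparisons share their syngeneic arrays, and the allogeneic and anti-CD3/CD28 arrays numbered 1 had the same Gzmc signal, so they are not independent. Without the arrays numbered 3 the anti-CD3/CD28 difference was −0.45.

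Gzmc and Gzmb, the adjacent genes whose promoter windows are printed above, thus differed from syngeneic culture with opposite signs in each number, Gzmb upward and Gzmc downward. The difference between the genes was not tested.

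Fasl encodes Fas ligand, a trimeric membrane protein of the tumour necrosis factor family. Its brighter probe set, 1449235_at, had signals of 4.31, 5.63 and 7.65 on allogeneic arrays, of 4.31, 5.81 and 5.20 on anti-CD3/CD28 arrays and of 4.31, 6.01 and 7.70 on syngeneic arrays. The 3 arrays numbered 1 gave the same value, and anti-CD3/CD28 array 3 was lower than the other arrays of its number. The signal lay above the array median on 5 of 9 arrays, fewer than for any other member. It differed from syngeneic culture by −0.14 in allogeneic and −0.90 in anti-CD3/CD28 culture, and neither passed limma's test. The second probe set, 1418803_a_at, had signals of 4.75, 4.90 and 7.36 on allogeneic arrays, of 4.75, 4.51 and 5.59 on anti-CD3/CD28 arrays and of 4.75, 4.35 and 7.04 on syngeneic arrays. It gave 0.29 for allogeneic and −0.43 for anti-CD3/CD28 against syngeneic culture, so the probe sets disagreed in sign for allogeneic culture. Without the arrays numbered 3 the anti-CD3/CD28 difference of the brighter probe set was −0.10.

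After the mean of each number was subtracted, Gzma, Gzmc and Fasl correlated at 0.952 (Gzma with Gzmc), 0.917 (Gzma with Fasl) and 0.981 (Gzmc with Fasl) over the 9 arrays, which share 3 numbers and rest largely on anti-CD3/CD28 array 3. Gzmb correlated with the other members at −0.45 to −0.21. The summed signal of granulocyte markers, 7 of 8 measured, was also lowest on that array. It was 187, 438 and 1213 on allogeneic arrays, 190, 338 and 145 on anti-CD3/CD28 arrays and 200, 494 and 1357 on syngeneic arrays. S100a8 and S100a9 made up most of it on allogeneic and syngeneic array 3. Of the 7, only 3 reached the mean array median on average and 1 lay above the median on all arrays. In anti-CD3/CD28 culture 5 averaged lower and 2 higher than in syngeneic culture. S100a9, a calcium-binding protein abundant in neutrophils, had 5.42, 7.11 and 9.23 on allogeneic arrays, 5.42, 6.97 and 3.73 on anti-CD3/CD28 arrays and 5.42, 7.74 and 9.25 on syngeneic arrays. The summed signal of 9 dendritic cell markers was 9002, 5802 and 25660 in allogeneic, 7563, 4327 and 10858 in anti-CD3/CD28 and 9707, 10910 and 22502 in syngeneic culture. The part of these cells in the values of Gzma, Gzmc and Fasl was not tested.

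Prf1 encodes perforin, the pore-forming protein of the granules. Its brighter probe set, 1450335_at, had signals of 5.52, 7.83 and 9.39 on allogeneic arrays, of 5.52, 7.83 and 9.59 on anti-CD3/CD28 arrays and of 5.89, 7.83 and 9.15 on syngeneic arrays. The cultures overlapped fully and the numbers did not overlap at all, with the limit on levels between numbers given above. Arrays of the same number correlated at 0.811 to 0.921 over all genes, so an order by number is not particular to Prf1. The share of all genes that separate by number was not counted. Differences were −0.05 for allogeneic and 0.02 for anti-CD3/CD28 culture against syngeneic culture, and −0.07 between allogeneic and anti-CD3/CD28 culture. With the replicate number as a block, the 95% interval was −0.50 to 0.40 for allogeneic and −0.43 to 0.47 for anti-CD3/CD28 culture. Without the block it was −2.60 to 2.51 for allogeneic culture. The second probe set, 1451862_a_at, had signals of 5.14, 5.67 and 6.46 on allogeneic arrays, of 5.45, 6.45 and 6.31 on anti-CD3/CD28 arrays and of 6.27, 6.45 and 5.52 on syngeneic arrays. It did not order the arrays by number in anti-CD3/CD28 or syngeneic culture, and it gave −0.32 for allogeneic and −0.01 for anti-CD3/CD28 against syngeneic culture. Both probe sets lay above the array median on all 9 arrays.

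**Figure D3:**
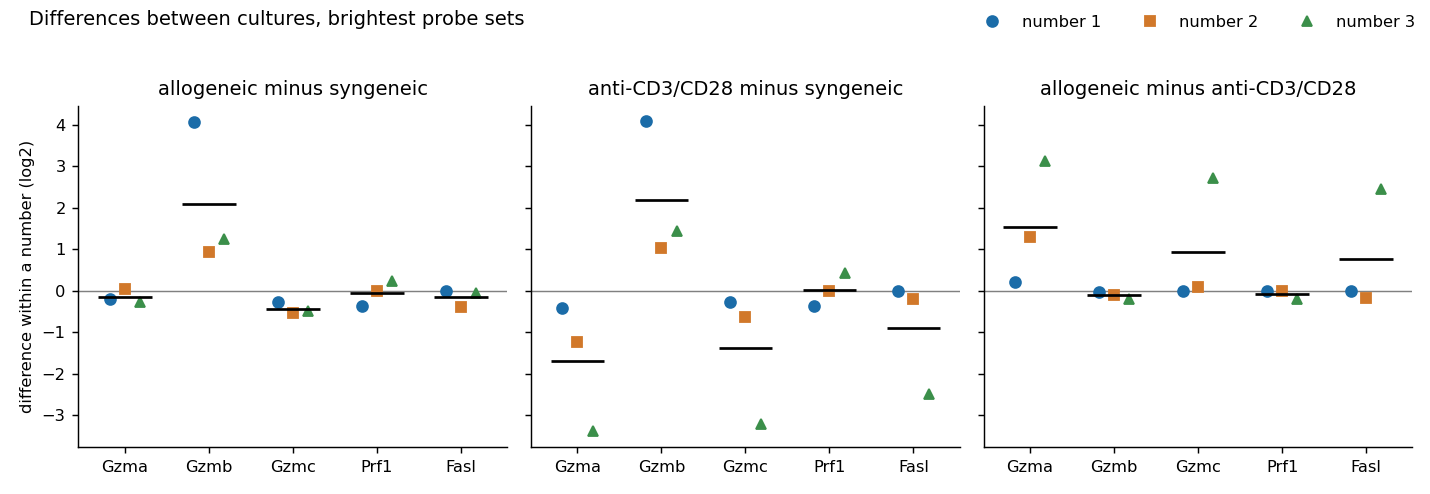
Log2 differences of the brightest probe set of each member within replicate numbers 1, 2 and 3, for the 3 comparisons of cultures, with the mean over the numbers. Gzmb lies above 0 in all numbers of both comparisons against syngeneic culture, and the lowest points of Gzma, Gzmc and Fasl, at −3.39, −3.21 and −2.50, are those of number 3 for anti-CD3/CD28 minus syngeneic culture.

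The genes most like each member over the 9 number-centred arrays were looked up among 10816 genes above the mean array median. For Gzmb they were Bcat1, the cytosolic branched-chain aminotransferase (r = 0.99), the small nucleolar RNA host gene Snhg3 (r = 0.98) and the kinase gene Stk39 (r = 0.98). Bcat1 had signals of 8.19, 7.87 and 9.07 on allogeneic arrays, of 7.99, 8.46 and 8.95 on anti-CD3/CD28 arrays and of 4.58, 7.30 and 7.94 on syngeneic arrays, and as with Gzmb its lowest signal was on syngeneic array 1. Gzmc was most like 1600014C10Rik, Sema6d and the neutrophil gene S100a8, and Gzma most like Pcbp4, Tmem38b and Il1rn, the interleukin 1 receptor antagonist. Fasl was most like Csf2ra, Gtdc1 and Nudt4. S100a8 had signals of 5.05, 5.85 and 8.34 on allogeneic arrays, of 5.08, 5.65 and 5.18 on anti-CD3/CD28 arrays and of 5.45, 6.75 and 9.07 on syngeneic arrays. Prf1 was most like Spib, Map2k5 and Dhrs11. With 9 arrays and so many genes compared, values this high are the top of a long list and carry no test.

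Among 10 mouse granzyme genes with 11 probe sets, Gzmd, Gzme, Gzmf, Gzmg and Gzmn of the chromosome 14 cluster lay above the array median on no array. 1 further probe set is listed for both Gzme and Gzmd and was left out, and Gzmd and Gzme have probe sets that may bind near-identical transcripts. Gzmk, a tryptase gene next to Gzma, lay above the median on 8 arrays and Gzmm on 3. Gzmk had signals of 5.25, 6.07 and 6.00 on allogeneic arrays, of 5.08, 5.98 and 5.57 on anti-CD3/CD28 arrays and of 5.85, 5.45 and 6.15 on syngeneic arrays, without a common direction over the numbers against syngeneic culture. Allogeneic minus anti-CD3/CD28 culture gave 0.17, 0.08 and 0.43 within the numbers. Gzmk differed from syngeneic culture by −0.05 in allogeneic and −0.27 in anti-CD3/CD28 culture. Of the 7 granzymes other than the members, 0 passed the test in either direction, and their median difference from syngeneic culture was 0.06 in allogeneic and −0.01 in anti-CD3/CD28 culture, beside 0.03 and 0.00 for all genes.

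**Figure D4:**
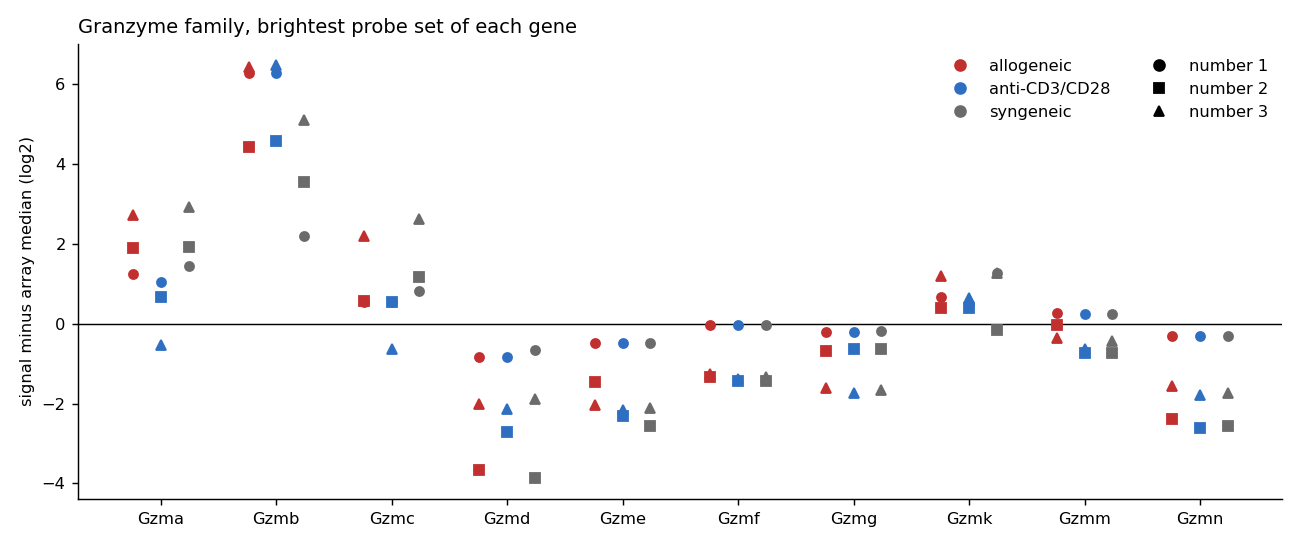
Signal minus array median (log2) of the brightest probe set of each granzyme gene on the 9 arrays, coloured by culture and marked by replicate number. Gzmb lies above the median on all 9 arrays, Gzma, Gzmc and Gzmk on 8 each, Gzmm on 3, and the other 5 genes on none.

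Genes that load and release the granules were measured in full. Of 15, 0 passed the test, 5 stood higher and 10 lower in both comparisons against syngeneic culture, with medians of −0.14 for allogeneic and −0.18 for anti-CD3/CD28 culture. Beside these counts and those of the lists below, 56.0% of all genes stood higher in allogeneic and 48.5% in anti-CD3/CD28 culture. Stx11, the syntaxin that lets granules fuse, had signals of 8.02, 6.97 and 9.69 on allogeneic arrays, of 7.97, 6.89 and 7.06 on anti-CD3/CD28 arrays and of 8.36, 8.22 and 10.28 on syngeneic arrays. It stood lower than syngeneic culture in each number of both, by −0.72 on average in allogeneic and −1.65 in anti-CD3/CD28 culture. Ctsh, a cathepsin that can process granzyme B, differed by −0.82 in allogeneic and −2.08 in anti-CD3/CD28 culture, and the granule membrane protein gene Lamp1 by −0.29 and −0.63.

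The serpins that inhibit granzymes protect cells from their own or a neighbour's granules. The 3 serpin genes listed here stood lower on average in both stimulated cultures than in syngeneic culture, and 0 passed the test. Medians were −0.54 for allogeneic and −1.22 for anti-CD3/CD28 culture. Whether Serpinb6a and Serpinb6b inhibit granzymes was not examined. Serpinb9, which inhibits granzyme B, had signals of 7.30, 8.09 and 10.30 on allogeneic arrays, of 7.30, 8.60 and 8.76 on anti-CD3/CD28 arrays and of 7.30, 9.67 and 10.33 on syngeneic arrays. It was equal on the arrays numbered 1 and lowest in the allogeneic array in number 2 and the anti-CD3/CD28 array in number 3. Serpinb6a differed by −0.57 in allogeneic and −1.57 in anti-CD3/CD28 culture, and Serpinb6b by −0.26 and −1.22. All 9 dendritic cell markers and the 11 measured macrophage markers also stood lower on average in both stimulated cultures, and their part in the values of the serpins, Stx11, Ctsh, Fas and Id2 was not tested.

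Of 15 genes of the death receptor pathway and granzyme substrates 12 were measured, and 0 passed the test. In each comparison against syngeneic culture 5 stood higher and 7 lower, with medians of −0.06 and −0.05. These were not all the same genes, as Casp8 was higher only in allogeneic and Fadd only in anti-CD3/CD28 culture. Fas, the receptor of Fas ligand, differed by −0.44 in allogeneic and −1.12 in anti-CD3/CD28 culture, lower in each number of both. Cflar, an inhibitor of caspase-8 activation, differed by −0.07 in allogeneic and −0.53 in anti-CD3/CD28 culture, and Apaf1, the apoptosome scaffold, by −0.69 and −0.70.

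Of 17 transcription factors of effector T cells 16 were measured and 0 passed the test, with medians of −0.18 in allogeneic and −0.31 in anti-CD3/CD28 culture. Eomes, a T-box factor of killer cells, had signals of 8.25, 7.59 and 8.58 on allogeneic arrays, of 8.22, 8.46 and 9.58 on anti-CD3/CD28 arrays and of 7.44, 7.25 and 8.27 on syngeneic arrays. It stood higher than syngeneic culture in each number of both, by 0.49 and 1.10 on average. Id2, an inhibitor of E proteins, differed by −0.81 in allogeneic and −1.85 in anti-CD3/CD28 culture, lower in each number of both. Runx3, whose family binds the Runx core, differed by −0.42 in allogeneic and −0.89 in anti-CD3/CD28 culture.

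Of 12 cytokine and receptor genes that accompany killing 11 were measured and 0 passed the test. In allogeneic culture 9 stood higher and 2 lower than in syngeneic culture, with a median of 0.43, and in anti-CD3/CD28 culture 7 stood higher and 4 lower, with a median of 0.18. Il2, the T cell growth factor, had signals of 8.01, 9.47 and 11.54 on allogeneic arrays, of 8.01, 7.48 and 9.18 on anti-CD3/CD28 arrays and of 5.97, 8.60 and 8.22 on syngeneic arrays. It differed by 2.08 in allogeneic culture, higher in each number, and by 0.63 in anti-CD3/CD28 culture. Lta, which encodes lymphotoxin alpha, differed by 1.21 in allogeneic and 1.14 in anti-CD3/CD28 culture. Il2ra, the inducible chain of the interleukin 2 receptor, differed by 0.66 and 0.41 and stood higher in each number of both.

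**Figure D5:**
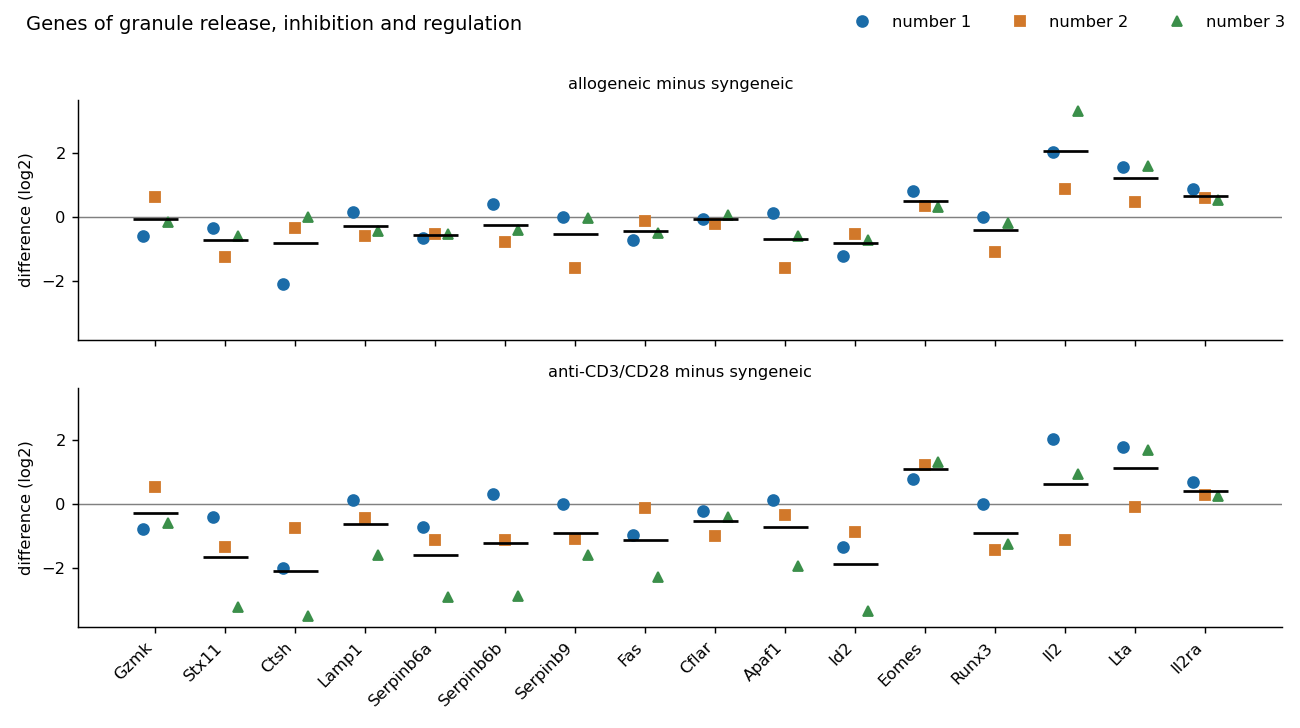
Log2 differences from syngeneic culture within replicate numbers 1, 2 and 3 for the pathway genes named in the text, in allogeneic culture (upper panel) and anti-CD3/CD28 culture (lower panel). Il2ra and Eomes lie above 0 in all numbers of both panels, and Stx11, Serpinb6a, Fas and Id2 below 0.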

How the data were processed

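The deposited table holds log2 signals of 45101 probe sets on 9 arrays, made by the authors with RMA, per the submitters' processing notes. The software version, and whether all arrays were normalized together, is not given in the sources used here. Values were used as deposited. Control probe sets (64), probe sets of several genes (932) and of no listed gene (9160) were left out. Of the rest, 34741 were matched by gene ID to a reference symbol, which was then used. Each of 18193 genes was represented by its brightest probe set. The test was limma 3.58.1 under R 4.3.3 (1 mean per group, all 9 arrays, variance prior with a trend). P-values were adjusted by Benjamini-Hochberg across the 18193 genes, at a threshold of 0.05. The number of arrays, 3 a group, limits the precision. Fits were tested on simulated data. Replicate numbers were taken to pair the arrays because all 9 same-number correlations exceeded 0.1, and the block was an alternative. Named list genes are up to 3 per list with the smallest unadjusted p among genes above the mean array median. Single genes given beside them were chosen after their values were seen. The members and lists were chosen with earlier results of these data known. Alternatives were the block, 2 scalings, a filter, other summaries and priors, and arrays left out.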

Additional observations from a re-analysis of the deposited data

How the results depend on the processing

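No member passed the threshold under any of 21 alternatives, and 291 of 315 recomputed member differences kept their direction. The 24 others changed sign, with values up to 0.98 and down to −0.95, both for Prf1. Many of the 291 could not change, as blocks, prior, filter and leaving out an array of an uncompared culture alter only the error. The count therefore overstates how stable the directions are. It also holds Prf1 without the arrays numbered 3, at −1.8e-15 for allogeneic minus anti-CD3/CD28. With the replicate block 0 genes were called in each comparison, and the adjusted p of Gzmb was 0.709 for allogeneic and 0.727 for anti-CD3/CD28 against syngeneic culture. The block ended or made no call. Numbers as a random block, chosen after the data were seen, called 1 gene for allogeneic and 30 for anti-CD3/CD28 culture against syngeneic culture, none a member (lowest member adjusted p 0.110), with 1178 and 1996 at an unadjusted p under 0.05. Arrays centred on their medians gave 1 gene for anti-CD3/CD28 culture. The cause of these calls was not tested.

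Allogeneic minus syngeneic, Fasl gave 0.074 with the mean of its probe sets, and Prf1 gave 0.071 after quantile normalization and 0.12 without the arrays numbered 1. Without the arrays numbered 3, also chosen after the data were seen, Fasl gave −0.092 for allogeneic minus anti-CD3/CD28 and Prf1 −0.19 for anti-CD3/CD28 minus syngeneic. With 1 array left out at a time, allogeneic minus syngeneic ran from −1.04 to 0.70 for Fasl, −0.68 to 0.43 for Gzma, −1.01 to 0.059 for Gzmc and −0.95 to 0.98 for Prf1. Allogeneic minus anti-CD3/CD28 ran from −0.14 to 1.53 for Fasl, −0.42 to 0.22 for Gzmb and −1.13 to 0.96 for Prf1, and anti-CD3/CD28 minus syngeneic from −0.95 to 1.08 for Prf1. Gzmb against syngeneic culture ran from 1.16 to 2.76 in allogeneic and 1.26 to 2.86 in anti-CD3/CD28 culture, lowest without syngeneic replicate 1. The cause was not tested. The brighter Fasl probe set lay at most 0.41 above the array median on all arrays but allogeneic and syngeneic replicate 3, where it lay 2.85 and 2.83 above, so its differences within numbers 1 and 2 are between dim signals.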
